A study of Homo sapiens with 12 samples.

Results

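The TNF superfamily was examined through its ligand and receptor genes in RCH-ACV, an established human B-cell precursor acute lymphoblastic leukemia line that expresses the pre-B-cell receptor. Its members were taken by gene symbol: every TNFSF or TNFRSF symbol followed by a number, and TNF, LTA, LTB, LTBR, FAS, FASLG, CD27, CD40, CD40LG, CD70, NGFR, EDAR and EDA2R. This rule found 40 genes among the 16848 genes in the table of clone 2 and 33 genes among the 15612 genes in the table of clone 1, and all 33 were also among the 40.

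RNA sequencing covered 12 libraries in 4 groups of 3: dasatinib-resistant cells of clone 1 and of clone 2, grown in rising dasatinib of at most 1 µM, and dasatinib-sensitive cells of clone 1 and of clone 2, grown in 0.1% DMSO. Dasatinib inhibits SRC and ABL family kinases. The 2 resistant clones were selected in parallel from the same line over months of exposure, and the 3 libraries of a group came from the same subline sampled on different occasions, so they are not separate selections. The value used for each gene is the authors' mean normalized count, which averages the 6 libraries of a clone, 3 of resistant and 3 of sensitive cells. It therefore gives a level for the clone as a whole and no spread between libraries, and the difference between resistant and sensitive cells was not analysed here. The normalized counts sum to 24561485 in clone 2 and 19108037 in clone 1. Depth of single libraries is unknown, and differences between clones are given with counting error only.

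All 10 B-lineage markers checked, among them CD79A, PAX5, VPREB1 and RAG1, were listed at 50 or more in both clones, between 67.0 and 12034 in clone 2 and between 67.7 and 13087 in clone 1. Of 18 markers of T, NK, myeloid, erythroid and stromal cells, 11 were listed in clone 2 and 8 in clone 1. The 4 that reached 50 in each clone included PDGFRB, at 5010 in clone 2 and 4455 in clone 1, and CSF1R, at 768 in clone 2 and 615 in clone 1. The CD3 chain genes CD3D, CD3E and CD3G of the T cell receptor complex and the erythroid genes HBA1 and HBB were listed in neither table.

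Ligands of the TNF superfamily are trimeric proteins, most of them made on the cell surface or shed from it. Their receptors fall into those with a cytoplasmic death domain, which can recruit FADD and caspase 8, those that bind TRAF adaptors and act mainly through NF-κB, and decoy receptors that bind ligand without passing on a full signal. In B-lineage cells the family is known for survival signals through the BAFF receptor, for T cell help through CD40, and for killing through FAS and the TRAIL receptors.

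The family lay low among the genes of both tables. The median member had a mean normalized count of 70.7 in clone 2 and 72.6 in clone 1, while the median over all genes was 442 in clone 2 and 406 in clone 1. A mean of 50 or more was reached by 22 of 40 members (55.0%) in clone 2, where 73.0% of all genes reached it, and by 20 of 33 members (60.6%) in clone 1, where 76.5% of all genes did. Another 7 members in each clone lay between 10 and 50, and the remaining 11 in clone 2 and 6 in clone 1 lay under 10. Levels of different genes are compared here per coding length, although some ranks changed per transcript length. The median member stood at 53.0 counts per 1000 coding bases in clone 2 and 86.8 in clone 1. Over all genes with a coding length, the medians were 369 in clone 2 and 330 in clone 1. The higher member median of clone 1 comes with 7 fewer listed members, since the genes listed in clone 2 alone were all weak.

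Of a list of 45 known ligands and receptors, 6 were listed in neither table, and all of them are ligands: CD40LG, FASLG, TNFSF8 (CD30 ligand), TNFSF11 (RANK ligand), TNFSF14 (LIGHT) and TNFSF18 (GITR ligand). The 7 members listed only in clone 2 were the TRAIL gene TNFSF10, the TL1A gene TNFSF15, and the receptors TNFRSF4, TNFRSF18, TNFRSF10C, TNFRSF11B and EDAR, with means between 1.59 and 4.29. The lowest mean in the table was 1.13 in clone 2 and 2.52 in clone 1, so the tables stop at different floors, and a gene that is not listed has no value here rather than a value of 0.

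**Figure D1:**
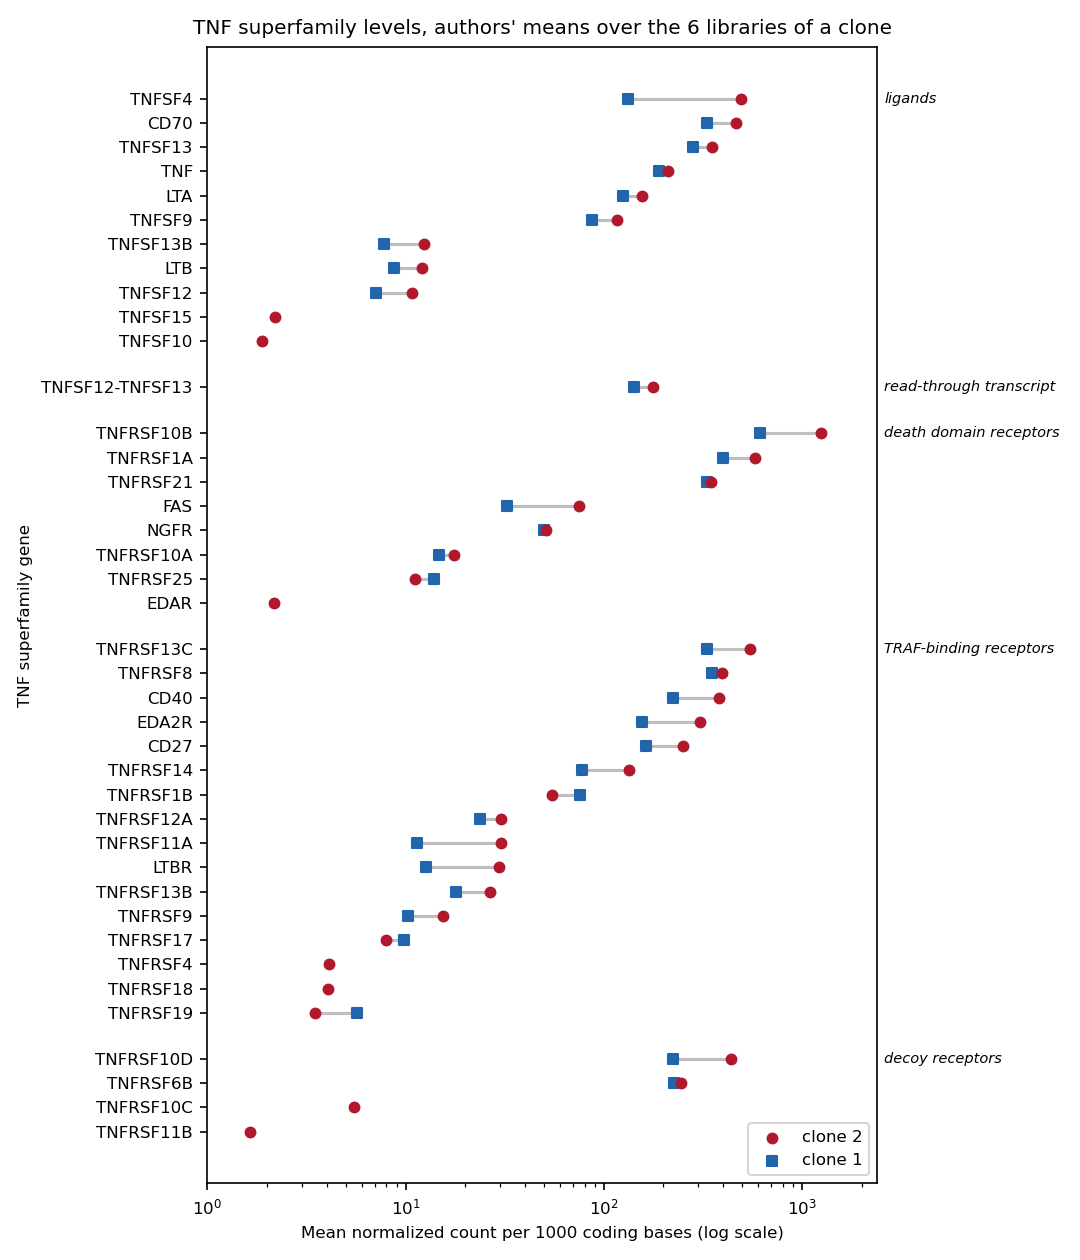
Mean normalized count per 1000 coding bases (x axis, log scale) of the 40 TNF superfamily genes, grouped by role, with red circles for clone 2 and blue squares for clone 1; each point is the authors' mean over 6 libraries and has no error bar. TNFRSF10B stands highest in both clones at 1243 and 614, TNFSF4 shows the widest gap among the ligands at 495 and 132, and the 7 genes with a red circle alone were listed in clone 2 only.

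Among the ligands, 6 of 11 listed in clone 2 and 6 of 9 listed in clone 1 reached a mean of 50, and they were the same genes: TNFSF4, CD70, TNFSF13, TNF, LTA and TNFSF9. TNFSF4, the OX40 ligand that costimulates T cells, had a mean normalized count of 272 in clone 2 and 72.6 in clone 1. Per 1000 coding bases this made it the highest ligand in clone 2 at 495 and placed it behind CD70, TNFSF13 and TNF in clone 1 at 132. Its rank in clone 2 holds for coding length only: per 1000 bases of the whole transcript, TNFSF4 stood at 78.3 in clone 2, below CD70 at 328, TNFSF13 at 135 and TNF at 87.7. CD70, which binds CD27, had means of 289 in clone 2 and 206 in clone 1, and at 331 counts per 1000 coding bases it was the highest ligand in clone 1. TNFSF13, the APRIL gene, had means of 265 in clone 2 and 212 in clone 1.

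The read-through gene TNFSF12-TNFSF13 was listed separately with means of 176 in clone 2 and 140 in clone 1, although TNFSF12 itself, the TWEAK gene, had only 8.05 in clone 2 and 5.27 in clone 1. In the GENCODE transcripts, 63.3% of the 50-base windows of TNFSF13 and 33.5% of those of TNFSF12 also occur in the read-through transcript. How the authors' counting divided such reads is not known, so the split among these 3 entries is uncertain.

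TNF, the inflammatory cytokine that gave the family its name, had means of 147 in clone 2 and 133 in clone 1. LTA, which encodes lymphotoxin alpha, had 96.2 in clone 2 and 76.5 in clone 1, whereas LTB, the membrane anchor of the lymphotoxin heterotrimer, had 8.90 in clone 2 and 6.37 in clone 1. The 3 genes lie next to each other in the genome, and per 1000 coding bases LTB was at 12.2 in clone 2 and 8.70 in clone 1 while LTA was at 156 and TNF at 210 in clone 2, with 124 for LTA and 190 for TNF in clone 1. TNFSF9, the 4-1BB ligand, had means of 88.7 in clone 2 and 66.1 in clone 1. TNFSF13B, which encodes the B cell survival factor BAFF, had 10.6 in clone 2 and 6.62 in clone 1.

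The death domain receptors held the highest member of the family. TNFRSF10B, the TRAIL receptor 2 gene, had a mean normalized count of 1641 in clone 2 and 811 in clone 1. Its 1243 counts per 1000 coding bases in clone 2 and 614 in clone 1 exceeded 77.7% and 66.3% of the genes with a coding length, and made up 17.1% of the summed level of the family in clone 2 and 13.1% in clone 1. Per transcript length it remained the highest in clone 2 at 396, while in clone 1, at 196, it stood below TNFRSF1A at 246 and CD70 at 234. TNFRSF10A, the TRAIL receptor 1 gene, had only 24.8 in clone 2 and 20.8 in clone 1. TNFRSF1A, TNF receptor 1, was second per coding length in both clones, with means of 790 in clone 2 and 548 in clone 1. TNFRSF21, death receptor 6, had means of 683 in clone 2 and 655 in clone 1, and was nearly level between the clones before any centring.

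FAS, the receptor of Fas ligand, was low, with means of 75.6 in clone 2 and 32.7 in clone 1. NGFR, the p75 neurotrophin receptor, had 65.8 in clone 2 and 64.1 in clone 1. TNFRSF25, death receptor 3, had 14.2 in clone 2 and 17.8 in clone 1. EDAR, the ectodysplasin receptor, was listed at 3.13 in clone 2 alone. In all, 5 of 8 death domain receptors reached 50 in clone 2 and 4 of 7 did so in clone 1, the added gene being FAS.

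Of the receptors that bind TRAF adaptors without a death domain, 8 of 16 reached 50 in clone 2 and 7 of 14 in clone 1. TNFRSF13C, the BAFF receptor of B cells, had means of 301 in clone 2 and 184 in clone 1, and with a short coding sequence of 552 bases it came after TNFRSF10B and TNFRSF1A per coding length in clone 2, at 546, while in clone 1, at 333, TNFRSF8 also stood above it and TNFRSF21 was level with it. Per 1000 bases of its much longer transcript it stood at only 76.4 in clone 2 and 46.6 in clone 1. TNFRSF8, which encodes CD30, had the highest mean of this class, 706 in clone 2 and 627 in clone 1. CD40, the receptor for T cell help, had 317 in clone 2 and 186 in clone 1. EDA2R, the X-linked ectodysplasin receptor, had 292 in clone 2 and 149 in clone 1.

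CD27, a costimulatory receptor, had means of 196 in clone 2 and 128 in clone 1. On the opposite strand, CD27-AS1 shares 28.2% of the CD27 windows and was itself listed at 445 in clone 2 and 313 in clone 1, and since the strand setting of the counting is not given, reads of this pair cannot be assigned with certainty. TNFRSF14, the LIGHT receptor HVEM, had 114 in clone 2 and 66.1 in clone 1, with 17.1% of its windows shared with TNFRSF14-AS1 on the opposite strand. The same uncertainty touches TNFRSF10A, TNFRSF25 and NGFR, which share 10.6%, 9.03% and 8.97% of their windows with genes on the opposite strand. TNFRSF1B, TNF receptor 2, had 75.7 in clone 2 and 105 in clone 1, and so was higher in clone 1. TNFRSF11A, which encodes RANK, had 55.9 in clone 2 and 21.2 in clone 1, and was past 50 in clone 2 only.

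The remaining receptors of this class were scarce, including 2 that B-lineage cells use to bind BAFF and APRIL. TNFRSF13B, which encodes TACI, had means of 23.3 in clone 2 and 15.7 in clone 1, and TNFRSF17, the plasma cell receptor BCMA, had 4.41 in clone 2 and 5.41 in clone 1. TNFRSF12A, the TWEAK receptor Fn14, had 20.6 in clone 2 and 16.1 in clone 1, and TNFRSF19 (TROY) had 4.43 in clone 2 and 7.23 in clone 1. LTBR, the lymphotoxin beta receptor, had 38.6 in clone 2 and 16.6 in clone 1. The costimulatory receptors TNFRSF9 (4-1BB), TNFRSF4 (OX40) and TNFRSF18 (GITR) had 11.9, 3.41 and 3.12 in clone 2, and of these only TNFRSF9 was listed in clone 1, at 7.87.

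Of the decoy receptors, TNFRSF10D and TNFRSF6B were the 2 with substantial levels. TNFRSF10D, a TRAIL decoy receptor with a truncated death domain, had means of 509 in clone 2 and 257 in clone 1. TNFRSF6B, the soluble decoy for Fas ligand, LIGHT and TL1A, had 222 in clone 2 and 203 in clone 1. Every window of TNFRSF6B also occurs in the read-through transcript RTEL1-TNFRSF6B, and RTEL1 itself was listed at 1271 in clone 2 and 1220 in clone 1, so the level of TNFRSF6B is uncertain. The other TRAIL decoy, TNFRSF10C, had 4.29 and osteoprotegerin (TNFRSF11B) had 1.97, both in clone 2 alone. Of the TNFRSF10C windows, 39.7% also occur in other genes on the same strand, so its level is uncertain too.

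Set against their binding partners, several receptors at 50 or more had a ligand that was weak or not listed. Of a list of 32 ligand and receptor pairs, 5 had both partners at 50 or more in both clones. These were TNF with TNFRSF1A and with TNFRSF1B, LTA with the same 2 receptors, and CD70 with CD27. LTA with TNFRSF14, both at 50 or more in both clones, was not on the list. In 9 pairs only the receptor reached 50 in both clones, and 3 of these rest on TNFRSF6B, whose level is uncertain. The others included TNFRSF10B and TNFRSF10D, whose ligand TNFSF10 was at 1.59 in clone 2 and not listed in clone 1, TNFRSF13C, whose ligand is TNFSF13B, and CD40 and TNFRSF8, whose ligands were in neither table. In 5 pairs only the ligand did so: TNFSF4 with TNFRSF4, TNFSF9 with TNFRSF9, TNFSF13 with TNFRSF13B and with TNFRSF17, and LTA with LTBR. The last was counted on LTA alone, although LTA binds LTBR in the heterotrimer with LTB. LTB was at 8.90 in clone 2 and 6.37 in clone 1. Pairs with TNFSF13, CD27, TNFRSF14 or TNFRSF10C are uncertain too, because these genes share sequence with other listed or annotated genes. The last 13 pairs had neither partner at 50 in both clones. These are transcript levels of cultured leukemia cells, and ligand made by other cells or protein at the surface was not measured.

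**Figure D2:**
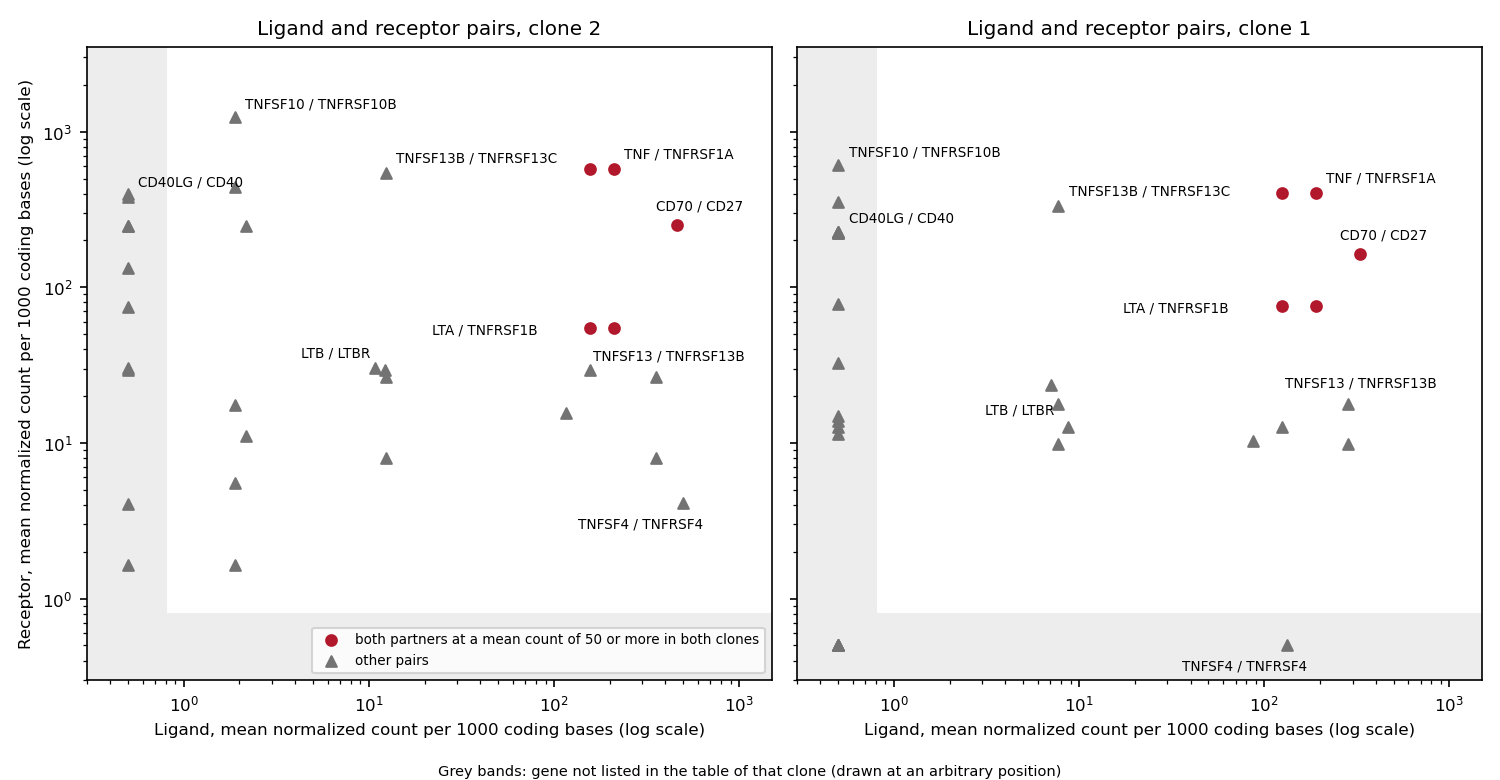
Level of the ligand (x axis) against that of its receptor (y axis) for the 32 pairs, both as mean normalized counts per 1000 coding bases on log scales, clone 2 on the left and clone 1 on the right. Red circles mark the 5 pairs with both partners at 50 or more in both clones, grey triangles the other 27, and the grey bands hold genes not listed in that table, such as CD40LG; TNFSF10 / TNFRSF10B and TNFSF4 / TNFRSF4 lie at opposite corners in clone 2.

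Members differed in how far their level in clone 2 departed from that in clone 1. Over 14177 genes listed in both tables with an average of both means of at least 10, the clone 2 mean was 1.29 times the clone 1 mean at the median, a log2 shift of 0.37 that was subtracted, so that every ratio is given relative to the median gene. The ratio was computed for 27 members, and the 6 other members listed in both tables were under that minimum. The median member stood at a log2 ratio of 0.11. The library names of the clones share most of their other codes but carry a different letter for each clone, whose meaning the labels do not give. Each table was also normalized by itself. A difference between clones therefore cannot be told apart from one between these sets or tables. Because each mean pools resistant with sensitive cells, a ratio can stem from either.

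More than a 2-fold difference was seen for 2 of the 27 members, where 2.02% of all genes passed it in either direction. TNFSF4 had 2.90 times the level in clone 2 relative to the median gene (95% counting interval 2.61 to 3.23), a ratio higher than that of 99.6% of genes. TNFRSF11A had 2.04 times (1.66 to 2.52), with an interval that reaches below 2. In a split by level chosen after seeing the data, 6.78% of genes averaging 10 to under 100, where TNFRSF11A lies, passed 2-fold, and so did 84 of 11198 genes averaging 100 and over, where TNFSF4 lies. The intervals treat the 6 libraries' summed normalized counts as counts and hold no variation between libraries, so neither ratio has a replicate check.

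Beyond 1.5-fold lay 9 of the 27 members, against 5.75% of all genes. Weakly expressed genes passed this limit more often. By the same split, it was 17.6% of genes averaging 10 to under 100, where 5 of 12 members passed, and 2.61% of genes averaging 100 and over, where 4 of 15 members passed. Higher in clone 2 were 7 of them. Apart from TNFSF4 and TNFRSF11A these were LTBR at 1.80 times (1.42 to 2.31), FAS at 1.79 (1.51 to 2.13), TNFRSF10B at 1.57 (1.51 to 1.62), TNFRSF10D at 1.53 (1.44 to 1.63) and EDA2R at 1.51 (1.39 to 1.64). Lower in clone 2, again relative to the median gene, were TNFRSF1B at 0.556 (0.491 to 0.628) and TNFRSF25 at 0.619 (0.457 to 0.824), whose counts are few.

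The other 18 members stayed within 1.5-fold. Among the better expressed were TNFRSF1A at 1.12 (1.07 to 1.17), CD70 at 1.08 (1.00 to 1.16), TNFSF13 at 0.966 (0.897 to 1.04), TNF at 0.855 (0.776 to 0.942) and TNFRSF8 at 0.871 (0.833 to 0.910). TNFRSF21, whose means were nearly level before centring, stood at 0.807 (0.772 to 0.843) relative to the median gene. CD40 at 1.32 (1.22 to 1.42) and TNFRSF13C at 1.27 (1.17 to 1.37) lay between these and the group beyond 1.5-fold. For 7 members the interval included the ratio of the median gene, among them LTA, TNFSF9 and TNFRSF12A.

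Members that lie next to each other in the genome had ratios both near and far apart. TNFRSF8 and TNFRSF1B stood at 0.871 and 0.556, LTBR and CD27 at 1.80 and 1.18, and TNFRSF10D and TNFRSF10A, in the cluster of TRAIL receptor genes, at 1.53 and 0.920. By contrast, LTA and TNF stood at 0.972 and 0.855, and TNFSF9 and CD70 at 1.04 and 1.08.

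**Figure D3:**
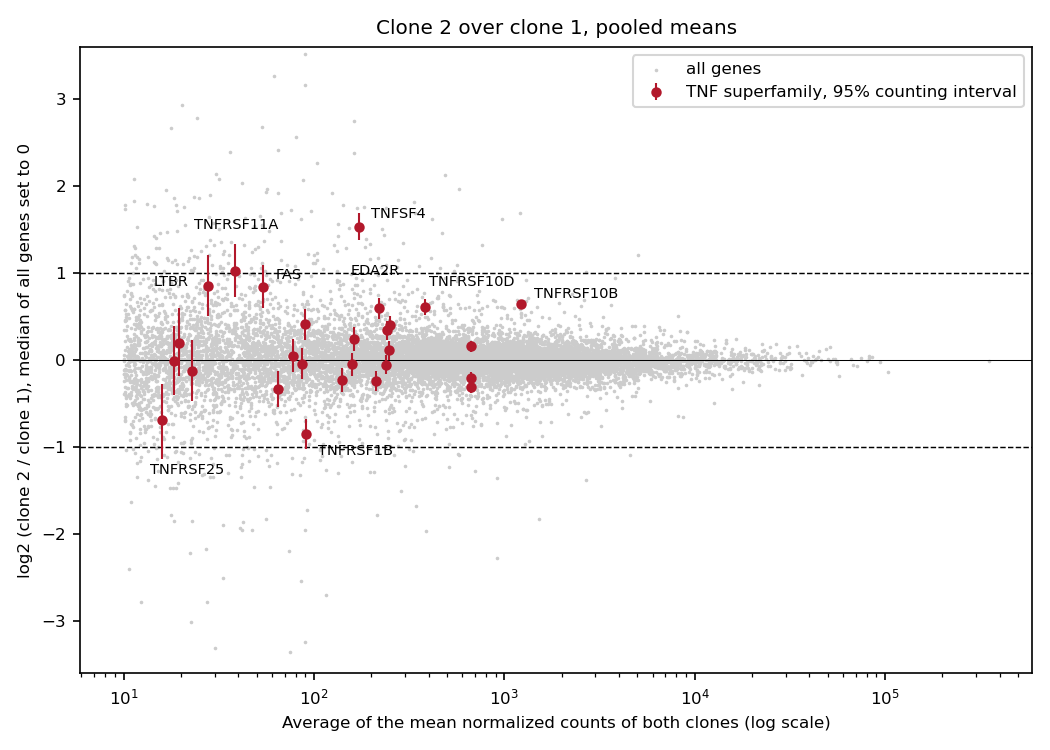
Log2 ratio of the clone 2 over the clone 1 mean normalized count, less the median of all genes (y axis), against the average of both means (x axis, log scale), for 14177 genes in grey and 27 TNF superfamily members in red with 95% counting intervals. Dashed lines mark 2-fold; TNFSF4 at 1.53 and TNFRSF11A at 1.03 lie above the upper one, TNFRSF1B at -0.85 is the lowest member, and 5 grey genes beyond 3.6 in either direction are not drawn.

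The intracellular partners of these receptors were expressed at higher levels than the family itself. Of 29 adaptors, kinases, caspases and NF-κB proteins, 29 were listed in clone 2 and 28 in clone 1. A mean of 50 was reached by 28 in each, where 73.0% of all genes in clone 2 and 76.5% in clone 1 did so. The median partner stood at 493 counts per 1000 coding bases in clone 2 and 374 in clone 1. The medians over all genes with a coding length were 369 and 330. Among the highest means were those of IKBKB, the IKK beta kinase gene, with 2531 in clone 2 and 1975 in clone 1, the NF-κB subunit NFKB1 with 2206 in clone 2 and 1851 in clone 1, and the adaptor TRAF4 with 2102 in clone 2 and 1541 in clone 1. RELA had 2017 in clone 2 and 1475 in clone 1. CFLAR, which encodes the caspase 8 inhibitor c-FLIP, had 1420 in clone 2 and 1133 in clone 1.

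ADAM17, the protease that sheds TNF, had 1228 in clone 2 and 986 in clone 1. TNFAIP3, the NF-κB feedback enzyme A20, had 1109 in clone 2 and 994 in clone 1. CHUK, the IKK alpha kinase, had 1076 in clone 2 and 726 in clone 1, and TRAF3, an inhibitor of alternative NF-κB signaling, had 1045 in clone 2 and 851 in clone 1. BIRC3, the ubiquitin ligase cIAP2, was the exception at 2.63 in clone 2 and was not listed in clone 1. Of the 28 with a ratio, 0 passed 2-fold between clones, against 2.02% of all genes, and 2 passed 1.5-fold, against 5.75% of all genes. The 2 beyond 1.5-fold were the initiator caspase gene CASP10 and the NF-κB subunit gene REL. Relative to the median gene, CASP10 stood at 1.93 times in clone 2, with means of 236 in clone 2 and 94.8 in clone 1. REL stood at 0.661 times on the same scale, with means of 56.3 in clone 2 and 65.8 in clone 1. Counting intervals were not computed for the partners. BIRC3, CASP10 and REL were named after their values were seen.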

How the data were processed

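Libraries were made with a stranded mRNA kit from column-purified RNA. Tools that the submitters' notes list without roles are DESeq2, FastQC 0.10.1, Picard 1.107, SAMtools, bedtools 2.19.0 and 2 versions of BWA, 0.7.7-r441 and 0.6.2-r126, with the build hg19. What counted the reads, on which annotation and with which strand setting, was not given in the sources used here. Each of the 2 deposited tables gives a signal per gene, made by the authors: counts scaled by size factors and averaged over all 6 libraries of the clone. This mean is not divided by gene length. The 7 other value columns of each table (fold change, standard error, statistic, p-value, adjusted p-value, its logarithm and direction) are the authors' own comparison and were not used. No test across libraries was therefore run. Genes that shared their symbol with another row of a table were left out, and no member was among them.

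The members and lists were chosen with earlier results of these data known. Levels were divided by the coding length of the longest coding transcript in GENCODE 29, matched by symbol for all 40 members. GENCODE is on another build, and its coordinates were used only for the order of genes. Neighbours are members with no other protein-coding gene between them in that order. Shared sequence was counted in windows of 50 bases of that transcript. Clone ratios needed an average of both means of 10, were centred on the median gene, and were tested on simulated data. Intervals (95%, exact binomial on 6 times the means) cover counting error only. Members at 50 or more in either clone were named, then those beyond 2-fold and binding partners. The other weak members were named after their values were seen. Some genes of the marker and partner lists are counted but not reported by name here. The design foresaw printing proteins, which were not analysed here. Python 3.11.15, pandas 2.3.3, NumPy 2.4.6, SciPy 1.17.1 and matplotlib 3.10.9 were used.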

Additional observations from a re-analysis of the deposited data

How the results depend on the processing

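The numbers of listed members stayed within 1.5 times with EDA and RELT added. RELT was listed at 1091 in clone 2 and 791 in clone 1, and was not added for any other result. The numbers at 50 or more stayed within 1.5 times with minimums of 10 and 100 and with an equal table sum. So did the 10 highest members per coding length with no length and with transcript length. With transcript length, 8 of those 10 members were kept in each clone. TNFRSF13C and TNFSF4 were lost in clone 2, and TNFRSF13C and TNFRSF10D in clone 1. Over the members listed in both clones, the median level was 96.2 in clone 2 and 72.6 in clone 1. Without members under 10, the median level was 147 in clone 2 and 128 in clone 1. The number of members more than 2-fold apart between clones was 5 without centring (TNFSF4, TNFRSF11A, FAS, LTBR and TNFRSF10B), 1 with an average of at least 50, 1 with no minimum and a pseudocount of 1, and 9 at 1.5-fold. An equal table sum gave 2. TNFSF4 passed under each of these and TNFRSF11A was lost under the stricter minimum and the pseudocount. In the first of these it falls below the minimum, and a pseudocount draws weak genes toward an equal level.

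No paired analysis was possible because the columns used hold 1 mean per clone and carry no replicate numbers. For the same reason the results were not computed without single libraries. Members with means under 10 rest on few reads, and genes that are not listed were not judged.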
